A study of Mus musculus with 18 samples.

Results

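The genes described here encode subunits of the 5 complexes of oxidative phosphorylation in mouse liver. They were taken by their symbols, which begin with Nduf (with a, b, s or v) for complex I, Sdh for complex II, Uqcr for complex III, Cox4 to Cox8 for complex IV and Atp5 for complex V. This rule found 71 of the 23111 named genes on the arrays, with 31 in complex I, 4 in complex II, 7 in complex III, 16 in complex IV and 13 in complex V. The rule used names only and no measured value, so Ndufa4, a subunit now placed in complex IV, is counted here in complex I. A further 7 genes of subunits and related proteins with other names (Ndufc1, Ndufc2, Ndufab1, Cyc1, Cycs, Cox7a2l and Ndufa4l2) are given with the other mitochondrial genes. Of these, Cycs encodes cytochrome c, which is not a subunit.

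Adult male C57Bl/6N mice were injected intraperitoneally with carbon tetrachloride (CCl4, a solvent that liver cells turn into a toxic radical) with olive oil as the vehicle, in 2 doses of 1.6 g/kg each week, and were killed 2 days after the last injection. RNA of right liver lobes was hybridised to Affymetrix Mouse Gene 2.0 ST arrays, with 3 arrays per group labelled as biological replicates, after 2, 4, 6, 8 or 10 weeks of CCl4 (ages 12, 14, 16, 18 and 20 weeks), beside 3 controls, so that 18 arrays fell into 6 groups. The controls are labelled healthy mice of week 10, aged 20 weeks, while the study elsewhere speaks of untreated mice and of mice given olive oil at weeks 0 and 10, so which controls were on the arrays is not settled. By the labels, the week 10 comparison was matched for age. Among the CCl4 groups, and for weeks 2 to 8 against control, age and weeks of CCl4 cannot be told apart. The series was set up to follow how the liver responds to repeated toxic injury, with weeks 4 and 6 in its phase II and weeks 8 and 10 in its phase III.

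Oxidative phosphorylation takes place in the inner mitochondrial membrane. Complex I accepts electrons from NADH and complex II, which is also an enzyme of the citric acid cycle, takes them from succinate. Both pass them to ubiquinone, complex III moves them on to cytochrome c and complex IV to oxygen, and complex V, the ATP synthase, uses the proton gradient that complexes I, III and IV build. Most subunits are encoded in the nucleus, and the rest by mitochondrial DNA. Hepatocytes are rich in mitochondria, whose ATP drives gluconeogenesis and urea synthesis. The mitochondrially encoded subunits were not analysed here, and neither were nuclear subunits with no named feature, such as Ndufb4, Uqcrb and Cox7c.

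The values are log2 intensities after robust multi-array averaging (RMA), so a difference of 1 is a doubling, and intensities of different genes are not comparable because probes differ in brightness. The arrays give no depth, and the number of arrays limits the precision. At week 6, the arrays of replicates 1 and 2 hardly differed, with an SD of log2 differences of 0.137 over 500 variable bright genes where the other 17 within-group pairs had 0.347 to 0.832. They may be repeat arrays of 1 RNA sample, which the labels do not settle, and their mean was counted as 1 sample, so 17 samples remained, with n = 2 at week 6. Where 15 CCl4 livers or 3 week 6 livers are counted, each array counts as a liver. Over the 71 subunits the SD of this pair was 0.130, near the lower end of the other pairs (0.129 to 0.221). Of the 71 subunits, 66 exceeded the 40th percentile of the array on at least 3 arrays, and the 5 that did not were Cox7b, Cox7b2, Cox8b, Cox8c and Atp5h. A total of 7 (Ndufb3, Cox4i2, Cox6a2, Cox7b, Cox7b2, Cox8b and Cox8c) lay below the array median on every array. All 71 were kept in every count unless another number is given.

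Promoter sequence is shown for Ndufb10 and Ndufs3, the 2 subunits that passed the test at week 6, and for Ndufv1 and Uqcrc1, the 2 with the lowest adjusted p over all groups. RefSeq (build GRCm38.p6) gave a window of 300 bases, from 250 before to 50 after the start of transcription, for 58 of the 71 subunits, with 63 windows in all. The 250 bases before the start are printed 5′ to 3′ on the strand of the gene, in lower case, with matches to any of the motifs named in the next paragraph in capitals. They lie at chr17:24724424-24724673 (minus strand) for Ndufb10, chr2:90904722-90904971 (minus strand) for Ndufs3, chr19:4012756-4013005 (minus strand) for Ndufv1 and chr9:108936398-108936647 (plus strand) for Uqcrc1.
Ndufb10: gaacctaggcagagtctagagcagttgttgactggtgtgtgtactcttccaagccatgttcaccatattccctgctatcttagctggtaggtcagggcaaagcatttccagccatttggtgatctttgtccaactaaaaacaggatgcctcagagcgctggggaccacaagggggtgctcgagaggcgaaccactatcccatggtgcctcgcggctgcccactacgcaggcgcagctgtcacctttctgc
Ndufs3: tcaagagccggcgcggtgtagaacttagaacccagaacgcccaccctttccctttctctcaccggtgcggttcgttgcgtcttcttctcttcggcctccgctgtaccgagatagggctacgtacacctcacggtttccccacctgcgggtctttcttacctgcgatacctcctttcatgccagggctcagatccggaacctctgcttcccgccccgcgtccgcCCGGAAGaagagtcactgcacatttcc
Ndufv1: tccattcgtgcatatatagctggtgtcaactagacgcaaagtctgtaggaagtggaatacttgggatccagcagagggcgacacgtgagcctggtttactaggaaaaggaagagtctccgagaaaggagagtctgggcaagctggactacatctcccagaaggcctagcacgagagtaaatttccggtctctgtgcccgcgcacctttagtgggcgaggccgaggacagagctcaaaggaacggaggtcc
Uqcrc1: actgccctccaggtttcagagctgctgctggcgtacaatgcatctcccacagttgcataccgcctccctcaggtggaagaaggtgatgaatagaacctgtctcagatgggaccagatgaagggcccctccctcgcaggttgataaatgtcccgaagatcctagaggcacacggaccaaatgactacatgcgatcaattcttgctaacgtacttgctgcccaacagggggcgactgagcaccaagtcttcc

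The motifs searched on both strands of the whole windows were those of NRF1 (the letters GCGCA, any base and GCGC), of GABPA and other ETS factors (CCGGAAG), of YY1 (AAGATGGC), of the estrogen-related receptors (TCAAGGTCA) and the TATA box (TATAAA). NRF1 and GABPA are transcription factors with known targets among respiratory chain genes. The NRF1 motif occurred in 15 of the 63 windows (23.8%), against 4.60% of all 32851 RefSeq windows. The ETS motif occurred in 16 (25.4% against 8.86%), the YY1 motif in 8 (12.7% against 2.75%) and the estrogen-related receptor motif in 2 (3.17% against 0.423%). The letters TATAAA occurred in 8 windows (12.7%), against 13.6% of all windows. They were counted on either strand and at any place, here from -235 to 4 bases from the start, so they need not be working TATA boxes. The median GC content was 57.7% in the subunits' windows and 52.7% in all windows. Among the 4 genes printed, Ndufs3 held the ETS motif 27 bases before its start and again at its start, and Uqcrc1 held the NRF1 motif only after its start. Neither Ndufb10 nor Ndufv1 held any of the 5 motifs. These matches describe letters in a window and not binding.

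Most subunits lay slightly below control at every week, and few passed the test. A gene was called when the adjusted p of limma was under 0.05 and the fold change above 1.5, in a single fit over all 23111 named genes. At week 6, 2 of the 71 subunits (2.82%) were called, Ndufb10 and Ndufs3, both lower and both in complex I, against 4.84% of all named genes in either direction and 1.86% in the downward direction. At weeks 2, 4, 8 and 10, 0 subunits were called, where 1.41%, 0.883%, 0.961% and 2.07% of all named genes were. The share of called subunits was thus close to the background at week 6. At the other weeks the background was so low that 0 of 71 cannot be told apart from it. The 5 weekly comparisons share the 3 control livers, so a control liver that stands apart would move all of them.

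**Figure D1:**
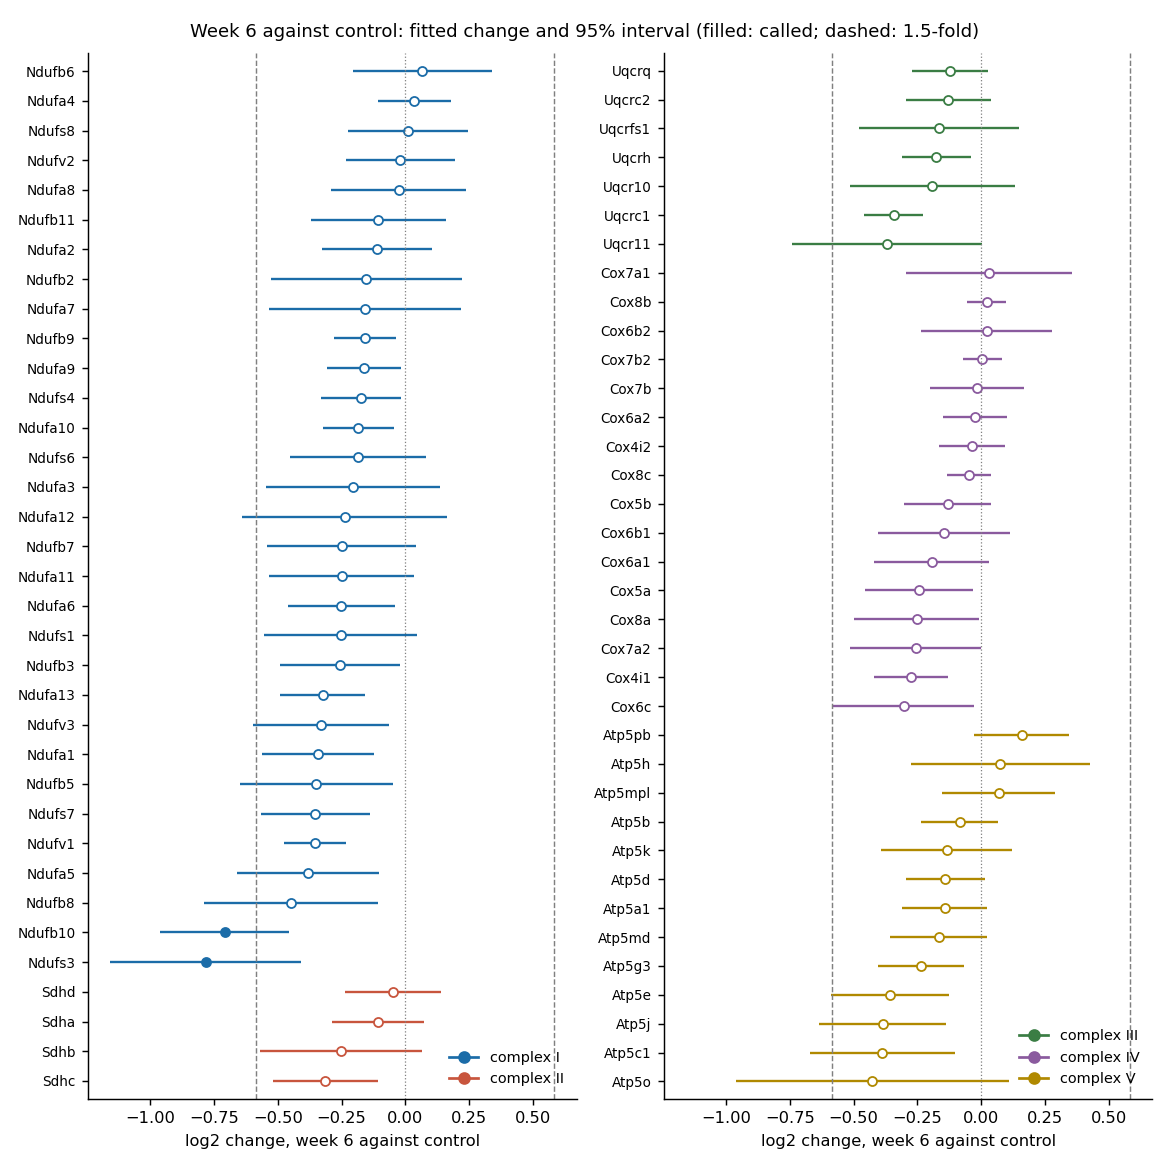
Fitted log2 change at week 6 against control for the 71 subunits by complex, with 95% intervals as lines, filled points for called genes and dashed lines at a 1.5-fold change. The points lie left of 0 for 61 of 71 genes, and only Ndufb10 and Ndufs3 are filled.

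Ndufb10, an accessory subunit in the membrane arm of complex I, had log2 intensities of 8.84, 8.90 and 8.94 in the control livers, 8.51, 8.51 and 8.62 at week 2, 8.64, 8.45 and 8.60 at week 4, 8.27, 8.40 and 8.04 at week 6, 8.66, 8.34 and 8.59 at week 8 and 8.66, 8.29 and 8.53 at week 10. All 15 CCl4 livers lay below all 3 controls, and the lowest value was that of replicate 3 of week 6. At week 6 the change was -0.71 (SE 0.117, 95% interval -0.96 to -0.46), which is 1.63-fold lower with an adjusted p of 0.00317. At weeks 2, 4, 8 and 10 the changes were -0.35, -0.34, -0.37 and -0.40, with adjusted p of 0.106, 0.148, 0.10 and 0.0452 and folds under 1.5. Without replicate 3 of week 6 the change at that week was -0.57 with an adjusted p of 0.0400, and the fold fell short of 1.5.

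Ndufs3, a core subunit in the arm of complex I that reaches into the matrix, was at 6.24, 5.96 and 6.48 in the control livers, 6.00, 5.99 and 6.17 at week 2, 5.90, 6.01 and 5.60 at week 4, 5.76, 5.60 and 5.21 at week 6, 6.01, 6.22 and 5.97 at week 8 and 5.95, 5.61 and 5.83 at week 10. The livers of weeks 6 and 10 lay below every control, those of weeks 2, 4 and 8 overlapped the controls, and the lowest value was again that of replicate 3 of week 6. The change at week 6 was -0.78 (SE 0.173, 95% interval -1.16 to -0.41), 1.72-fold lower, with an adjusted p of 0.0136. It was -0.18 at week 2, -0.39 at week 4, -0.16 at week 8 and -0.43 at week 10, with adjusted p from 0.127 to 0.722. Without replicate 3 of week 6 it was -0.55 with an adjusted p of 0.168, and with the control and week 6 arrays fitted alone the adjusted p was 0.0879. Without that replicate, 0 subunits were called at week 6, and with week 6 held by that replicate alone 2 were called.

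**Figure D2:**
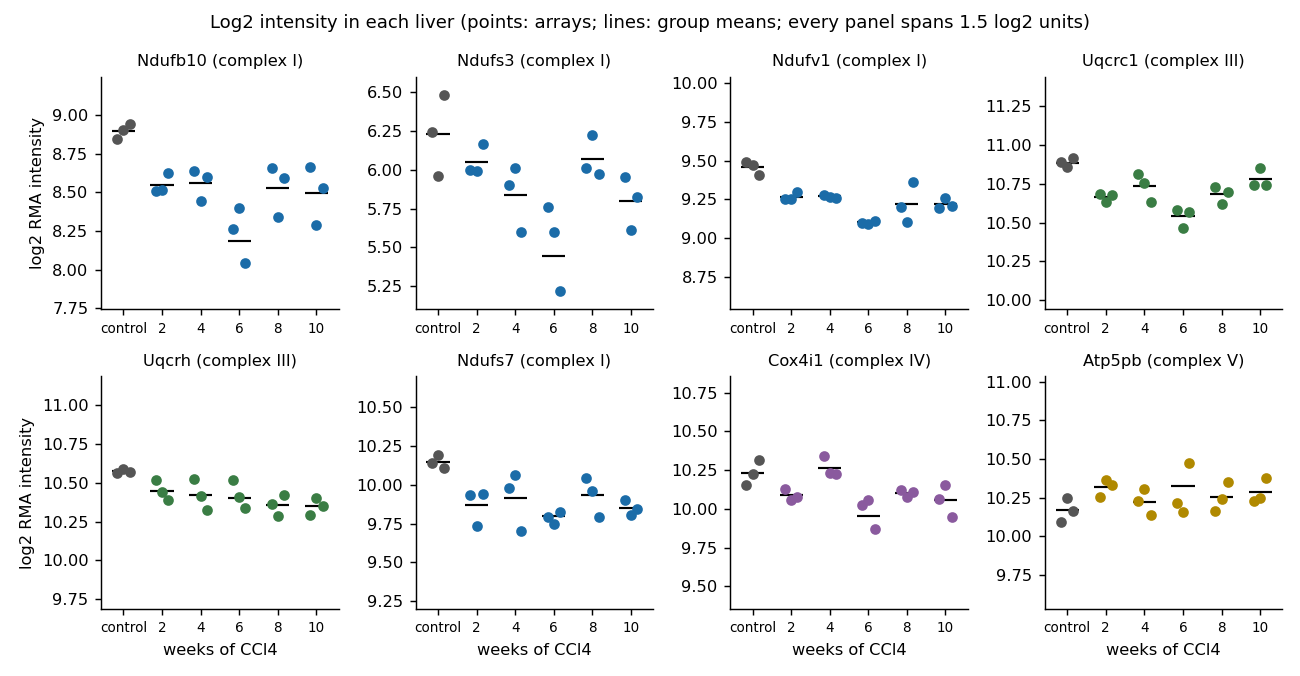
Log2 RMA intensity of 8 subunits in each of the 18 livers by weeks of CCl4, with points for arrays and lines for group means (at week 6, replicates 1 and 2 count as 1). Ndufb10, Ndufv1, Uqcrc1, Uqcrh and Ndufs7 lie below control in all 15 CCl4 livers, and Atp5pb does not.

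Without the fold threshold, 7 subunits had an adjusted p under 0.05 at week 6, all lower (9.86% of the 71, against 9.77% of all named genes and 4.59% in the downward direction). Beside Ndufb10 and Ndufs3 these were Ndufa13, Ndufs7, Ndufv1, Uqcrc1 and Cox4i1, with folds from 1.21 to 1.28. Uqcrc1 alone passed at week 2 and Ndufv1 alone at week 8, against 2.67% and 1.80% of all named genes (1.31% and 0.922% in the downward direction). Ndufv1, Uqcrh, Ndufa13 and Ndufb10 passed at week 10, against 4.98% (2.52% downward), and 0 passed at week 4, against 1.72% (0.913% downward). All of these were lower than control. Apart from Ndufb10, Ndufs3 and Cox4i1, the genes in this paragraph were named after their values were seen.

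Ndufv1, the subunit that binds NADH and the flavin to which NADH gives its electrons, was at 9.49, 9.47 and 9.41 in the control livers, 9.25, 9.25 and 9.30 at week 2, 9.28, 9.27 and 9.26 at week 4, 9.10, 9.09 and 9.11 at week 6, 9.20, 9.11 and 9.36 at week 8 and 9.19, 9.26 and 9.21 at week 10. All CCl4 livers lay below all controls. Its change at week 6 was -0.35 (SE 0.0566, adjusted p 0.00265, 1.28-fold lower), and -0.24 at both weeks 8 and 10 (adjusted p 0.0380 and 0.0197).

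Uqcrc1, a core protein of complex III, was at 10.89, 10.86 and 10.91 in the control livers, 10.69, 10.63 and 10.68 at week 2, 10.81, 10.76 and 10.63 at week 4, 10.58, 10.46 and 10.57 at week 6, 10.73, 10.62 and 10.70 at week 8 and 10.74, 10.85 and 10.74 at week 10. Here too every CCl4 liver lay below every control. The change was -0.22 at week 2 (adjusted p 0.0305), -0.15 at week 4 (0.15), -0.34 at week 6 (SE 0.0535, adjusted p 0.00238), -0.20 at week 8 (0.0522) and -0.11 at week 10 (0.224).

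A test of any difference among the 6 groups (moderated F test over the 5 weekly contrasts) called 3 subunits (4.23%), against 3.62% of all named genes. They were Uqcrc1 (adjusted p 0.0268), Ndufv1 (0.0315) and Ndufb10 (0.0465). Leaving out any 1 of the 3 controls, or replicate 3 of week 6, brought this count to 0. In 5 subunits (7.04%, against 2.22% of all named genes) all CCl4 livers lay below all controls: Ndufb10, Ndufs7, Ndufv1, Uqcrc1 and Uqcrh. Ndufs7 carries the iron-sulfur cluster next to the ubiquinone site of complex I, and Uqcrh is a small acidic subunit of complex III known as the hinge protein.

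Ndufs7 was at 10.14, 10.20 and 10.11 in the controls and between 9.71 and 10.07 in the CCl4 livers, with a change of -0.35 at week 6 (adjusted p 0.0398). Uqcrh was at 10.56, 10.59 and 10.57 in the controls and between 10.29 and 10.53 in the CCl4 livers, and its change was -0.23 at week 10 (adjusted p 0.0370). In the mean of the 5 CCl4 groups against control, 0 subunits were called, against 2.58% of all named genes. With any fold, 6 passed (8.45%, against 8.81% of all named genes and 4.54% in the downward direction), all lower: Ndufb10 (-0.43), Ndufs7 (-0.28), Ndufv1 (-0.24), Uqcrc1 (-0.21), Ndufa13 (-0.19) and Uqcrh (-0.18).

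The small changes of the single genes ran in 1 direction. At week 6, 27 of the 71 subunits (38.0%) were lower at an unadjusted p under 0.05 and 0 were higher, against 12.8% and 10.7% of all named genes. At weeks 2, 4, 8 and 10, 14, 13, 11 and 14 subunits (19.7%, 18.3%, 15.5% and 19.7%) were lower by that measure, against 8.24%, 7.74%, 7.92% and 11.8% of all named genes, and 0 were higher. The fitted change was below 0 for 56, 62, 61, 55 and 52 of the 71 subunits at weeks 2, 4, 6, 8 and 10, where 53.2% to 57.4% of all named genes were below 0. The median change of the subunits was -0.08, -0.09, -0.18, -0.10 and -0.10 at these weeks, against -0.01, -0.01, -0.02, -0.01 and -0.01 over all named genes. Among the 66 subunits above the low filter, the median at week 6 was -0.19, against -0.04 over the 15216 named genes above it. Of these 66, 40.9% were lower at an unadjusted p under 0.05 at week 6, against 18.5% of those 15216 genes (15.1% higher). At weeks 2, 4, 8 and 10 the lower shares were 16.7% to 21.2%, against 10.7% to 16.4%. They were closest at week 10 (21.2% against 16.4%). At every week the contrast was smaller than against all named genes. Subunits of the same complexes were measured in the same livers, so these counts describe the list and no p-value was attached to them.

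**Figure D3:**
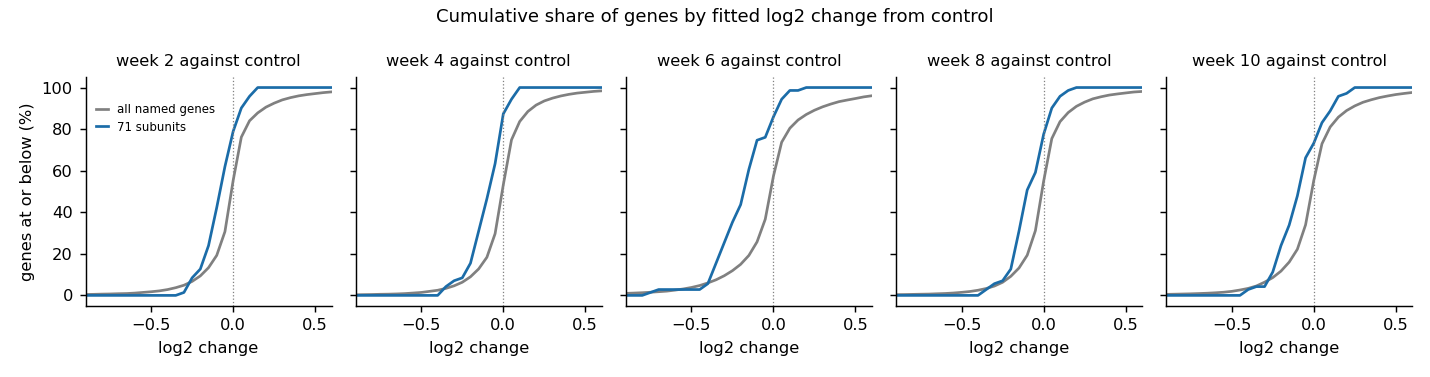
Cumulative share of genes (vertical axis, %) at or below a given log2 change from control (horizontal axis), for the 71 subunits and for all named genes at each week. At week 6, 74.6% of the subunits and 25.8% of all named genes lie at or below -0.1, while 5.63% and 5.99% lie at or below -0.4.

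The intervals bound what a missed call could hide. The 95% interval of the change lay within a 1.5-fold change either way for 71, 68, 59, 66 and 66 of the 71 subunits at weeks 2, 4, 6, 8 and 10. A 1.5-fold rise lay outside the interval of every subunit at every week. At week 6 the 12 intervals that were wider reached beyond a 1.5-fold fall. These intervals are not adjusted for the number of genes. At week 6, 42 subunits had both week 6 samples below all controls, against a background of 24.3% of all named genes. At weeks 2, 4, 8 and 10 this held for 15, 20, 11 and 25 subunits, against 12.1%, 10.4%, 11.2% and 14.5%.

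The week 6 livers stood lowest when each liver was summarised by the median difference of its 71 subunits from the control mean. These medians were -0.21, -0.18 and -0.19 in replicates 1, 2 and 3 of week 6. They ranged from -0.09 to -0.06 at week 2, from -0.13 to -0.05 at week 4, from -0.13 to -0.03 at week 8 and from -0.12 to -0.07 at week 10, and from -0.02 to 0.01 in the controls. All 15 CCl4 livers were below all 3 controls, and the 3 week 6 arrays did not overlap those of any other week. The lowest of the 5 weekly changes fell at week 6 for 41 of the 71 subunits. In total 42 subunits were below control at all 5 weeks, and 2 (Atp5pb and Atp5h) were above it at all 5. In bulk tissue, fewer cells of a type and less RNA per cell cannot be told apart.

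**Figure D4:**
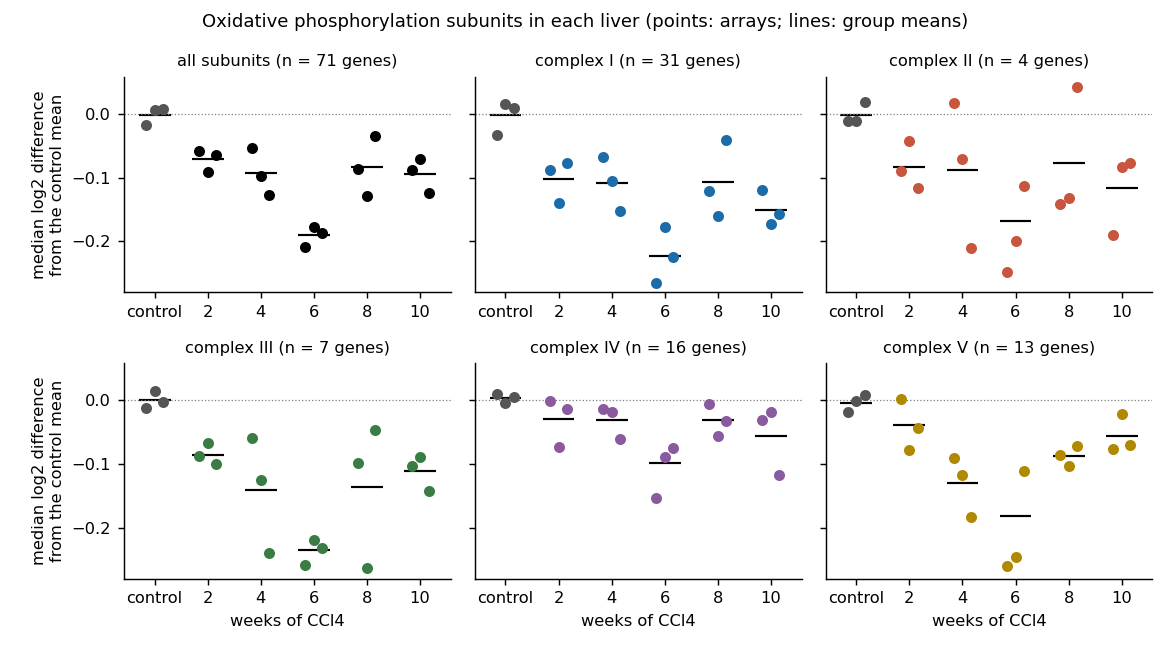
Median log2 difference from the control mean over all subunits and over each complex, 1 point per array and lines for group means (at week 6, replicates 1 and 2 count as 1), by weeks of CCl4. Week 6 is lowest over all subunits, between -0.21 and -0.18, and at that week the mean of complex IV is the nearest to 0. Of the 16 subunits of complex IV, 4 did not exceed the low filter. Without these its week 6 arrays were at -0.20, -0.17 and -0.16, beside -0.25, -0.20 and -0.11 in complex II.

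Whether week 6 differed from the other weeks was tested gene by gene. Over all 10 pairs of weeks, 0 subunits were called. The lowest adjusted p was 0.0718, for Cox4i1 at week 6 against week 4 (-0.31, 95% interval -0.45 to -0.16). In that comparison 0 of the 71 subunits were called, against 0.169% of all named genes, 11 were lower at an unadjusted p under 0.05 and the median was -0.07. In phase III against phase II, 0 subunits were called and 0 of all named genes. There the median was 0.05, with 51 of the 71 subunits above 0 and 6 higher and 0 lower at an unadjusted p under 0.05, and all 71 intervals lay within a 1.5-fold change. A lower level at week 6 than at other weeks is therefore a description here and was not called for any single subunit.

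**Figure D5:**
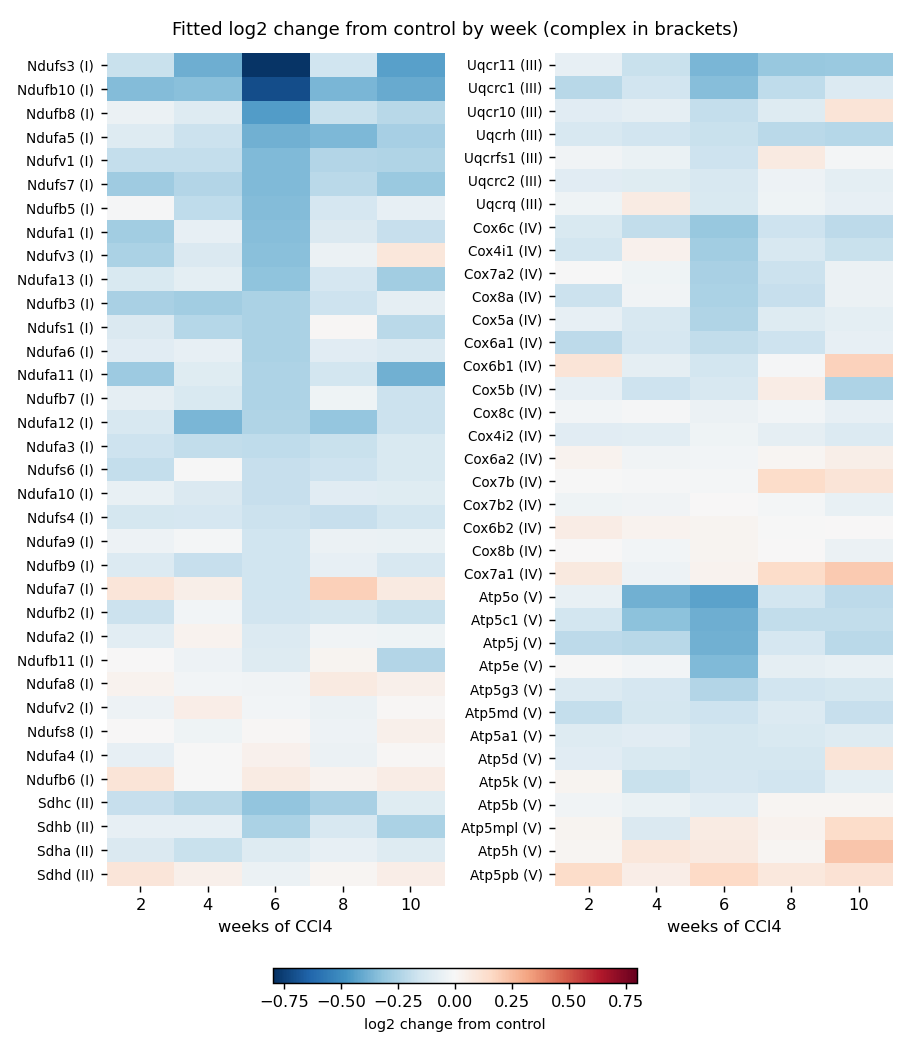
Fitted log2 change from control for each of the 71 subunits (rows, ordered by complex and by the change at week 6) at each week (columns), blue for lower and red for higher, on a scale from -0.8 to 0.8. The week 6 column holds the lowest of the 5 changes for 41 subunits, and Atp5pb and Atp5h are red at all 5 weeks.

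Complex I held both called subunits, 2 of 31 (6.45%, against 4.84% of all named genes in either direction and 1.86% called lower). At week 6, 28 of its 31 subunits were below 0, with a median of -0.24 and a range from -0.78 (Ndufs3) to 0.07 (Ndufb6). Of these, 16 were lower at an unadjusted p under 0.05. The 6 measured core subunits, which carry out electron transfer (Ndufs1, Ndufs3, Ndufs7, Ndufs8, Ndufv1 and Ndufv2), had a median of -0.30, and the 25 others one of -0.21. Within the core the subunits did not move alike: Ndufs3, Ndufv1 and Ndufs7 were at -0.78, -0.35 and -0.35, while Ndufv2 and Ndufs8 lay near 0, the latter at 0.01. This split into core and other subunits was made after the values were seen.

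Ndufb6, an accessory subunit of the membrane arm, was the highest of complex I, at 9.52, 9.57 and 9.71 in the controls and 9.41, 9.52 and 9.87 at week 6. Its change there was 0.07 (95% interval -0.21 to 0.34), and replicate 1 lay below the lowest control, replicate 2 at its level while replicate 3 lay above all controls. Ndufa13, also known as GRIM-19, was at 5.11, 5.14 and 5.17 in the controls and 4.84, 4.83 and 4.79 at week 6, a change of -0.32 (adjusted p 0.0195). After the called genes, the lowest changes of complex I at week 6 were those of Ndufb8 (-0.45) and Ndufa5 (-0.38), with adjusted p of 0.0975 and 0.0845. Ndufa13, Ndufb8 and Ndufa5 were named after their values were seen.

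Complex II is encoded by 4 nuclear genes only, all of them measured. At week 6 all 4 lay below 0 and 0 were called, with a median of -0.18. Sdhc, a membrane anchor, had the lowest change, with 9.75, 9.87 and 9.99 in the controls and 9.40, 9.64 and 9.59 at week 6 (-0.31, adjusted p 0.0565). Sdhb, the iron-sulfur subunit, was at 10.43, 10.36 and 10.38 in the controls and 10.10, 10.09 and 10.19 at week 6 (-0.25, adjusted p 0.343). Sdha, the flavoprotein that oxidises succinate, changed by -0.11 (adjusted p 0.512). Sdhd, the other anchor, changed by -0.05 at week 6 (95% interval -0.24 to 0.14) and by 0.03 over all CCl4 groups. The week 6 livers were below all controls for Sdha, Sdhb and Sdhc, and overlapped them for Sdhd. Both week 6 samples lay below all controls for 24.3% of all named genes, and a list of 4 is too short to set against that share.

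In complex III all 7 subunits lay below 0 at week 6, between -0.37 and -0.12, with a median of -0.18. The lowest was Uqcr11, a small subunit of the membrane part, at 7.81, 7.94 and 8.09 in the controls and 7.59, 7.37 and 7.68 at week 6. Its change was -0.37 with an SE of 0.172, and the adjusted p was 0.217. Uqcrfs1, the Rieske iron-sulfur protein, changed by -0.16 at week 6 (95% interval -0.48 to 0.15) and by -0.04 over all CCl4 groups. Uqcrq, another small subunit, was the least changed at week 6, at -0.12 (95% interval -0.27 to 0.03).

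In complex IV the median at week 6 was -0.09, with 12 of 16 subunits below 0 and 1 (Cox4i1) at an adjusted p under 0.05. Cox4i1, the widely expressed form of subunit 4, was at 10.15, 10.23 and 10.31 in the controls, 10.34, 10.23 and 10.22 at week 4 and 10.03, 10.05 and 9.87 at week 6. Its week 6 arrays lay below all controls (-0.28, adjusted p 0.0222, 1.21-fold lower), and its week 4 arrays did not. Several subunits of this complex have isoforms known from other tissues, such as Cox4i2 from lung, Cox6a2, Cox7a1 and Cox8b from heart and muscle, and Cox6b2, Cox7b2 and Cox8c from testis. The 7 such isoforms had changes between -0.05 and 0.03 at week 6, with a median of 0.00464, and 0 were called at any week. The 9 other subunits all lay below 0, with a median of -0.24.

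Of those 7 isoforms, 5 (Cox4i2, Cox6a2, Cox7b2, Cox8b and Cox8c) lay below the array median on every array, where a change is hard to measure. Their log2 intensities over all 18 arrays ran from 3.69 to 4.32, near the lower end of the arrays. The partners in the same pairs changed at week 6 by -0.28 (Cox4i1), -0.19 (Cox6a1), -0.14 (Cox6b1), -0.26 (Cox7a2), -0.02 (Cox7b) and -0.25 (Cox8a), of which only Cox4i1 had an adjusted p under 0.05. Cox7a1 was the highest of complex IV, at 0.03 (95% interval -0.30 to 0.36). Cox6c was the lowest, at -0.30 (95% interval -0.58 to -0.03, adjusted p 0.164). Cox5b, a subunit on the matrix side, changed by -0.13 (95% interval -0.30 to 0.04), and its intensity stayed between 3.90 and 4.35 on all arrays.

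No subunit of complex V was called. At week 6, 10 of 13 subunits were below 0 and the median was -0.14, with 4 lower at an unadjusted p under 0.05. Atp5o, the stalk protein that confers oligomycin sensitivity, had the lowest value, with 5.53, 5.57 and 5.53 in the controls and 5.05, 5.08 and 5.16 at week 6. Its change was -0.43, but the SE was 0.247 and the adjusted p 0.338, and the week 2 arrays alone spanned 6.01, 5.04 and 5.40. Atp5c1, the gamma subunit of the rotor, changed by -0.39 (95% interval -0.67 to -0.10, adjusted p 0.0854). The alpha and beta subunits of the catalytic head, Atp5a1 and Atp5b, changed by -0.14 and -0.08, and their intervals held 0.

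Atp5pb, a peripheral stalk subunit, went the other way, with 10.10, 10.25 and 10.16 in the controls, 10.25, 10.37 and 10.33 at week 2 and 10.21, 10.15 and 10.47 at week 6. Its change at week 6 was 0.16 (95% interval -0.03 to 0.35, adjusted p 0.295), and over all CCl4 groups 0.11 (adjusted p 0.298). All 3 week 2 livers exceeded every control, and the week 6 livers overlapped them. Atp5h, the other subunit above control at all weeks, did not exceed the low filter, and its intensities (3.70 to 4.36) overlapped those of the controls at every week. How the complexes differed from each other was not tested.

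Subunits with and without each promoter motif were compared by their medians. At week 6 the 14 subunits with the NRF1 motif had a median change of -0.22 and the 44 others with a RefSeq window one of -0.18. The medians with and without this motif were -0.11 and -0.07 at week 2, -0.13 and -0.07 at week 4, -0.15 and -0.10 at week 8 and -0.11 and -0.07 at week 10, so those with the motif were lower at every week. The 8 with the YY1 motif were at -0.20 against -0.19 for the other 50 at week 6, and at -0.15, -0.12, -0.17 and -0.14 against -0.07, -0.08, -0.10 and -0.07 at weeks 2, 4, 8 and 10. The 16 with the ETS motif were at -0.19 and the 42 without it at -0.19 at week 6. The 2 with the estrogen-related receptor motif were at -0.14 (-0.19 without it) and the 7 with the letters TATAAA at -0.17 (-0.19 without them) at week 6. The difference between these groups was not tested. Neither called subunit held the NRF1 or YY1 motif, and Ndufs3 held the ETS motif.

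Other genes of mitochondrial energy metabolism were taken from lists chosen with earlier results of these data known. The shares below therefore describe these lists and test nothing. At week 6, 3 of 48 measured assembly factors were called, all lower (6.25%, against 1.86% of all named genes called lower at that week and 4.84% in either direction): Ecsit (-0.80, adjusted p 0.00262), Ndufaf4 (-0.80, 0.0108) and Ndufaf6 (-0.62, 0.0202), all known to help build complex I. Ecsit and Ndufaf4 kept the call under every alternative except a 2-fold threshold and a test against a 1.5-fold change, while Ndufaf6 lost it also without control replicate 2 or 3 or week 6 replicate 2 or 3. The list's median was -0.14, and 0 of its genes were called at weeks 2, 4, 8 and 10, against 0.883% to 2.07% of all named genes. Of the 7 genes of subunits and related proteins with other names 0 were called, with a median of -0.10 at week 6. The lowest of them was Cyc1, the cytochrome c1 of complex III, at 8.83, 8.85 and 8.80 in the controls and 8.27, 8.13 and 8.30 at week 6 (-0.58). Its adjusted p was 0.0077, and its fold of 1.495 fell just short of 1.5. It was named after its values were seen.

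Among 17 regulators of mitochondrial gene expression, 3 (17.6%) were called at week 6, all lower, against 1.86% of all named genes called lower. Esrra, the estrogen-related receptor alpha, was at 6.12, 6.21 and 6.15 in the controls and 5.34, 5.55 and 5.60 at week 6 (-0.64, adjusted p 0.00607). Ppargc1b, a coactivator that works with it, was at 5.61, 5.61 and 5.57 and 4.58, 4.58 and 5.08 (-0.77, adjusted p 0.0326). Yy1, a transcription factor with many kinds of target, was at 8.47, 8.40 and 8.38 and 7.61, 7.95 and 7.83 (-0.61, adjusted p 0.000142). In all 3 genes the week 6 livers lay below every control, against 24.3% of all named genes with both week 6 samples below every control. At weeks 2, 4, 8 and 10, 0 regulators were called, against 0.883% to 2.07% of all named genes. In a list of 17, 0 cannot be told apart from these shares. The Ppargc1b call was lost without any 1 of the controls (adjusted p 0.0732 to 0.0759) and with an equal-variance test per gene (0.06), and Yy1 fell below the fold threshold without control replicate 1 or week 6 replicate 1. Ppargc1a, the better known relative of Ppargc1b, was at 7.06, 7.03 and 7.22 in the controls and 7.23, 6.91 and 7.19 at week 6, and these overlapped.

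Of 17 genes of the citric acid cycle and pyruvate entry, 2 (11.8%) were called at week 6, 1 lower and 1 higher, against 4.84% of all named genes. Pdha1, a subunit of pyruvate dehydrogenase, was lower at weeks 4 (-0.71), 6 (-0.64) and 10 (-0.63), with adjusted p of 0.0395, 0.0356 and 0.0361, and lost each of these calls without any 1 of the controls. Leaving out week 6 replicate 3 ended its week 6 call, leaving out week 10 replicate 1 or 2 its week 10 call, and leaving out any 1 of 8 CCl4 arrays of weeks 2, 4, 8 and 10 its week 4 call. An equal-variance test per gene ended all 3 Pdha1 calls (adjusted p 0.0861, 0.0637 and 0.0668), and fitting the groups alone ended those of weeks 4 (0.110) and 10 (0.0519). Idh2, the mitochondrial isocitrate dehydrogenase that makes NADPH, was higher at week 6 (0.59, adjusted p 0.0110), a call lost without control replicate 2 or week 6 replicate 3. Of 18 carriers and pores, 1 was called (5.56%, close to the 4.84% of all named genes): Slc25a4, an ADP/ATP carrier best known from heart and muscle. It was at 6.34, 5.89 and 6.05 in the controls and 7.29, 7.54 and 6.70 at week 6 (0.97, adjusted p 0.0290), and the call was lost without control replicate 2 or 3, with an equal-variance test per gene (adjusted p 0.0549) and with the groups fitted alone (0.0839). The other 17 carriers and pores were not called, and the median of the list was -0.20.

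Markers of other cells moved at the same weeks, and so did cell cycle genes, which do not mark a cell type. At week 6, 6 of 7 measured macrophage markers, 5 of 8 stellate cell and myofibroblast markers and 9 of 11 cell cycle genes were called higher, with median changes of 1.72, 1.84 and 2.88. Of all 23111 named genes, 688 were called higher at that week. Per liver, the median difference of the cell cycle genes from control was 2.49 to 3.03 at week 6 and 0.08 to 1.85 at the other weeks. That of the stellate cell markers was 1.19 to 2.71 and 0.48 to 1.15, and that of the macrophage markers 1.41 to 1.97 and 0.35 to 1.83. Of 10 measured hepatocyte markers 0 were called at any week, against 0.883% to 4.84% of all named genes. The mean log2 intensity of these markers was 12.47 to 12.51 in the controls and 12.51 to 12.54 at week 6. The highest value on any array was 14.12, so these markers lay toward the upper end. Their per-liver median difference was 0.01 to 0.04 at week 6. Their single changes there ran from -0.39 to 0.45, with 2 lower and 3 higher at an unadjusted p under 0.05 and 1 at an adjusted p under 0.05. The markers of endothelium (6), cholangiocytes (4), lymphocytes (5), smooth muscle and pericytes (6), skeletal and cardiac muscle (8) and adipocytes (6) held 0 called genes at week 6. In lists this short, 0 called genes cannot be told from the share of 4.84% over all named genes. Among the endothelial markers, Cdh5 was called higher at weeks 2 and 10 and Lyve1 at week 2. Pancreas markers stood 1.07 above control in replicate 2 of week 10, and leaving out each array in turn moved the subunits' median at week 10 between -0.11 and -0.09. The part of other cells and of cell division in the lower subunit values was not tested. Whether the hepatocyte markers follow the share of hepatocytes in the tissue was not tested either.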

How the data were processed

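Total liver RNA was hybridised to 18 arrays (Affymetrix Mouse Gene 2.0 ST). The authors ran RMA in affyPLM with the Brainarray probe definitions (version 22), which give 1 log2 intensity per Entrez gene, and deposited these. In the deposited table, 17 of 18 arrays share 1 set of sorted values, which comes from quantile normalization, so values are relative to the other genes of an array. Gene names came from the platform annotation for 23111 of 23748 features, and 637 without a name entered 1 alternative only. Probes of subunits with close copies elsewhere in the genome may read those too.

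The test was that of limma 3.58.1 (R 4.3.3), with group means as the only terms, over 17 samples (week 6 replicates 1 and 2 as their mean). P-values were adjusted by Benjamini-Hochberg within each comparison over all named genes. A call needed a fold change above 1.5 and an adjusted p under 0.05, as the study's methods state (its results give the fold threshold on the log scale). Intervals are moderated 95% intervals. The labels call the arrays biological replicates. The subunits, the other lists, the treatment of week 6 and the tests were chosen with earlier results of these data known. Named were the called subunits, per complex the highest and lowest at week 6 and over all CCl4 groups, the complex IV isoform pairs, complex II and Cox5b, and called genes of the other lists. Motifs were searched in RefSeq promoter windows (GRCm38.p6) with Python 3.11.15, and plots made with matplotlib 3.10.9. The scripts were tested on simulated data. The alternatives were separate arrays, other thresholds and variance models, array weights, a replicate block, a low filter (above the 40th percentile on 3 arrays), other scalings, all features, and each array left out.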

Additional observations from a re-analysis of the deposited data

How the results depend on the processing

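The counts of called subunits at weeks 2, 4, 8 and 10, over all CCl4 groups and in the comparisons between weeks stayed at 0 under every alternative with a fold threshold, and without one they were 1 at week 2, 1 at week 8, 4 at week 10 and 6 over all CCl4 groups. At week 6 the count of 2 became 7 without a fold threshold, 1 with the groups fitted alone, and 0 with a 2-fold threshold or with a test against a 1.5-fold change. Leaving out each array in turn gave 0 to 2 there, with 0 only without replicate 3. The count of subunits with any difference among the groups was 3. It was 5 with 18 separate arrays, 0 with a trended robust prior, 1 with the replicate block, and 0 to 3 on leaving out each array in turn. The median change stayed below 0 at each week and over all CCl4 groups, with ranges on leaving out each array of -0.10 to -0.07 at week 2, -0.12 to -0.0648 at week 4, -0.20 to -0.18 at week 6, -0.11 to -0.0668 at week 8 and -0.11 to -0.09 at week 10. For week 6 against week 4 it ranged from -0.12 to -0.0444, and for phase III against phase II from 0.03 to 0.06. No called gene that was named changed direction under any alternative. The replicate numbers showed no sign of pairing the mice. Over 500 variable genes, 45 pairs of arrays had the same number in different groups. Their deviations correlated between -0.44 and 0.49 (median -0.03), and 3 of 18 arrays were closest to their own number. With 3 arrays per group this check cannot exclude handling shared by arrays of the same number. With the replicate block the count at week 6 stayed at 2, and the calls of Pdha1 (adjusted p 0.0653 at week 4, 0.0631 at week 6 and 0.0543 at week 10) and Slc25a4 (0.055) were lost. The members above the low filter gave the same counts, an alternative added after seeing the data, as was week 6 held by replicate 3 alone. Precision is limited by 3 arrays per group and by n = 2 at week 6, where leaving out replicate 3 leaves 1 sample, taken to have the spread of the other groups. The causes of the changed counts were not tested.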
